A study of Danio rerio with 21 samples.

Results

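The genes described here are myb and znf296, 2 transcription factor genes of blood stem cell formation, taken by name from the 3064 genes that the deposited tables list. RNA was sequenced from sorted cells of zebrafish embryos aged 28 to 30 hpf (hours after fertilisation), all carrying TgBAC(runx1P2:Citrine), which puts Citrine under the P2 promoter of runx1, and Tg(kdrl:mCherry), which marks endothelium. Of the gates sorted from non-injected embryos (Wt), DP-R1hi took cells with both colours and strong Citrine, the haemogenic endothelium (HE), DP-R1lo took cells with both colours and weak Citrine, the aortic roof endothelium (ARE), and DN took cells with neither colour. Embryos injected with a splice-blocking runx1 morpholino (MO) gave DP-R1hi and DN cells, and every clutch had been divided into an injected and a non-injected part. Each of these 5 groups had 3 libraries, each made from at least 3000 cells of many pooled embryos. The Wt SP-kdrl and Wt DP-R1med gates, also sampled 3 times each, were not analysed here.

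The product of myb, c-Myb, binds DNA through tandem Myb repeats and is needed in mouse and zebrafish for definitive blood, the lineage that arises from haemogenic cells in the floor of the dorsal aorta. It keeps stem and progenitor cells dividing and undifferentiated, and its mRNA is a customary marker of haemogenic endothelium and of the stem cells that leave it. The gene znf296 codes for a C2H2 zinc finger protein; its mouse counterpart is known from pluripotent cells, where it aids reprogramming and binds the NuRD chromatin remodelling complex. Runx1, the factor lowered by the morpholino, is the master regulator of the step from endothelium to blood. Values of runx1 itself were not analysed here.

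The tables hold 3 comparisons, and each lists only genes that the authors called, 25% of the genes tested for HE against ARE, 5.89% for MO against Wt in DP-R1hi and 1.53% for MO against Wt in DN. The gene myb was listed for HE against ARE and in neither MO table. The gene znf296 was listed for HE against ARE and for MO against Wt in DP-R1hi, and not in DN. An unlisted gene has no value in any library of that table. Its absence does not show that it did not respond, since by the ranks of the deposited values 242 genes under the authors' threshold were also left off the DP-R1hi MO table and 41 off the DN table. Per the paper, both MO comparisons were fitted on the Wt and MO libraries of DN and DP-R1hi together. Genes without reads in 3 or more samples were removed, but over which of these libraries that was counted is not stated. Whether that filter or the threshold left myb off the MO tables cannot be told. Levels of myb in morphant cells, and of both genes in DN cells, therefore cannot be given. The values are CPM, read counts scaled by the size of each library, and every value was a whole multiple of 1 step per library, which is taken below as 1 read. On that reading the effective library sizes, by which the counts were scaled, were 9.72 to 22.6 M. They differ between comparisons for the same library and so are not totals of reads. Replicates correlated across listed genes with r from 0.936 to 0.983.

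Setting DP-R1hi against DP-R1lo asked what sets haemogenic cells apart from their aortic neighbours. Both genes were higher in HE, myb about 5-fold and znf296 about 3-fold, and for both the gates were clearly apart. For myb the HE libraries 1 to 3 stood at 744, 792 and 882 CPM and the ARE libraries at 172, 161 and 141 CPM. The lowest HE value was 4.33 times the highest ARE value, so the gates did not overlap. The same held for 1085 of the 1099 listed genes that were higher in HE, or 39.7% of all listed genes. Means were 806 ± 69.9 CPM in HE and 158 ± 15.5 CPM in ARE (SD, n = 3), a log2 difference of 2.34 ± 0.12 (SE) on the scale of log2(CPM + 1). This is a 5.07-fold difference with a 95% interval of 4.21 to 6.10, and the limma adjusted p was 1.16e-06. An exact two-sided permutation test over the libraries gave p = 0.1, the smallest that 3 against 3 can reach. The roof gate was low in myb but far from empty of it, with 2293 to 2682 reads per ARE library against 12047 to 17029 per HE library. Counting error came to at most 2.09% of a value, against a coefficient of variation between replicates of 8.67% in HE and 9.78% in ARE. It takes each read as an independent molecule, which reads of amplified low-input libraries are not, and so leaves out the sampling of molecules and amplification.

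For znf296 the HE libraries stood at 78.8, 92.3 and 79.3 CPM and the ARE libraries at 23.8, 27.1 and 21.7 CPM. Again no values overlapped, the lowest HE library lying 2.90 times above the highest ARE library. Means were 83.5 ± 7.68 CPM in HE and 24.2 ± 2.76 CPM in ARE (SD, n = 3), a log2 difference of 1.75 ± 0.17 (SE) or 3.35-fold (95% interval 2.58 to 4.35), with a limma adjusted p of 3.50e-05. The exact permutation test was again at its smallest p of 0.1. Reads per library ran from 1275 to 1584 in HE and from 328 to 451 in ARE. Counting error of the ARE values (4.71 to 5.52%) stood beside a replicate variation of 11.4%.

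**Figure D1:**
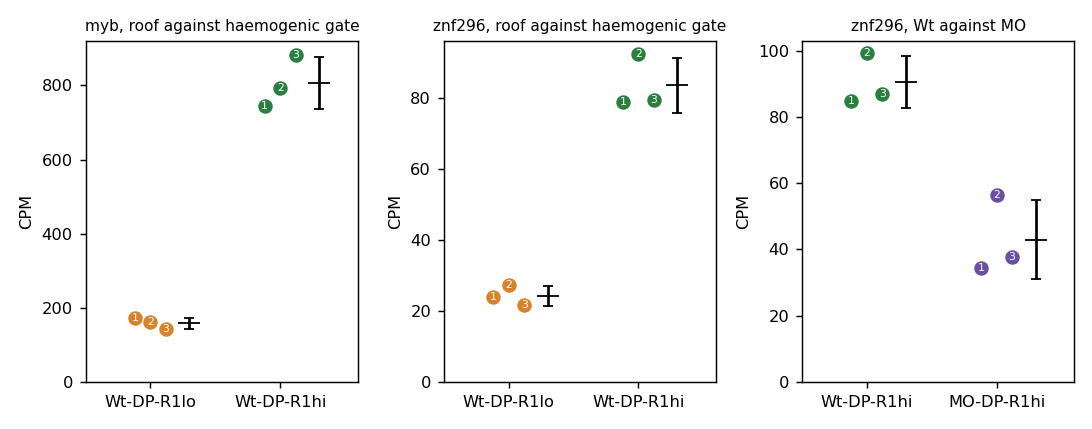
CPM of myb and znf296 in each library (numbered points), with the mean and SD of each group beside them; every axis starts at 0. The HE libraries lie above the ARE libraries for both genes, and the 3 MO libraries (34.5 to 56.5 CPM) lie below the 3 Wt libraries (84.9 to 99.4 CPM) for znf296.

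Limma called 1037 genes higher in HE, 9.5% of the 10916 genes that the authors tested and 38% of the 2732 listed. Both members are among them, as a listed gene with a rise of this size nearly had to be. A gene is listed only if these same libraries had already shown a difference, so the p-values repeat that selection with another model and add no separate evidence. Ordered by log2 difference, myb ranked 27 and znf296 ranked 77 among the 1099 listed genes that were higher in HE. Both lay in the steep upper part of that order, where few genes differed more. These samples are bulk, so that a larger share of expressing cells in the gate and more mRNA per cell cannot be told apart.

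The 2 genes were also set against each other within each library, where gene length drops out of the difference between gates. The log2 gap of myb over znf296 was 3.22, 3.09 and 3.46 in the HE libraries and 2.80, 2.53 and 2.65 in the ARE libraries. The gap was wider in HE by 0.60, and no HE library fell within the ARE range. The exact permutation test gave p = 0.1, the smallest value this test can give with 3 against 3. The 95% intervals of the separate log2 differences (2.07 to 2.61 for myb, 1.37 to 2.12 for znf296) overlapped narrowly.

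**Figure D2:**
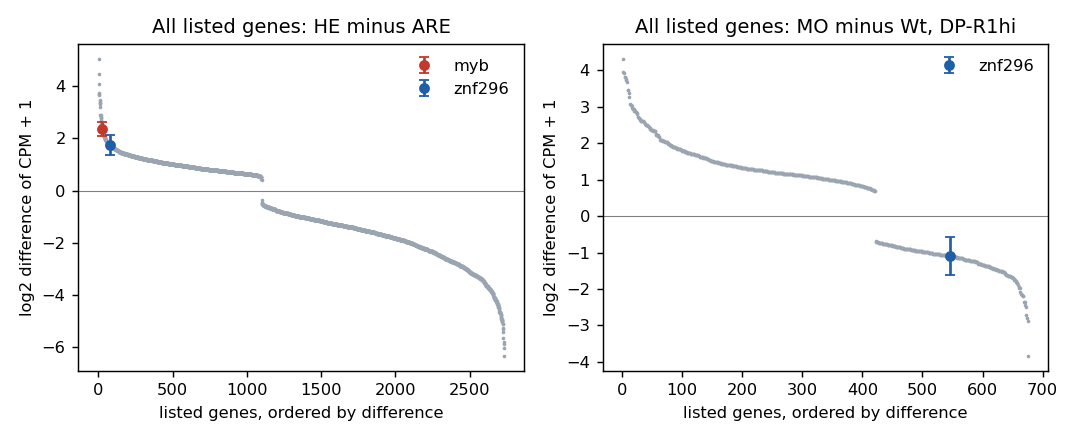
Log2 difference of every listed gene (grey), ordered from highest to lowest, with myb and znf296 marked with their 95% intervals. In HE minus ARE (left) myb at 2.34 and znf296 at 1.75 lie near the top; in MO minus Wt of DP-R1hi (right) znf296 at −1.09 lies midway among the lower genes.

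The MO comparison in the DP-R1hi gate asked which of these transcripts depend on Runx1. After the knockdown znf296 stood well below its Wt level. The Wt libraries 1 to 3 stood at 84.9, 99.4 and 87.0 CPM and the MO libraries at 34.5, 56.5 and 37.7 CPM. All MO values lay below all Wt values, as for 244 of the 255 listed genes that were lower (36.1% of all listed genes), and MO library 2 lay apart from the other 2. Means were 42.9 ± 11.9 CPM in MO and 90.4 ± 7.83 CPM in Wt (SD, n = 3), so MO held 47.4% of the Wt mean. The log2 difference was −1.09 ± 0.23 (SE; 95% interval −1.60 to −0.57), with a limma adjusted p of 0.0396 and an exact permutation p of 0.1, the smallest possible. Limma called 102 genes lower in MO, 0.889% of the 11479 genes tested and 15.1% of the 676 listed, and by size of fall znf296 ranked 132 of the 255 listed genes that were lower. The difference was negative in all 3 numbered pairs, from −1.28 to −0.80.

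This call was a narrow one. Leaving out 1 library raised the limma adjusted p above the threshold in 5 of 6 cases, namely without Wt-DP-R1hi 1 (0.168), 2 (0.217) or 3 (0.115) and without MO-DP-R1hi 1 (0.115) or 3 (0.0974). Without MO-DP-R1hi 2, the highest MO library, the adjusted p was 0.0210 and the log2 difference −1.30. The direction stayed the same in all 6 fits, between −1.30 and −0.95. None of these fits used the numbered pairs. With the pairs as a replicate block and all libraries kept, the limma adjusted p was 0.0182.

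**Figure D3:**
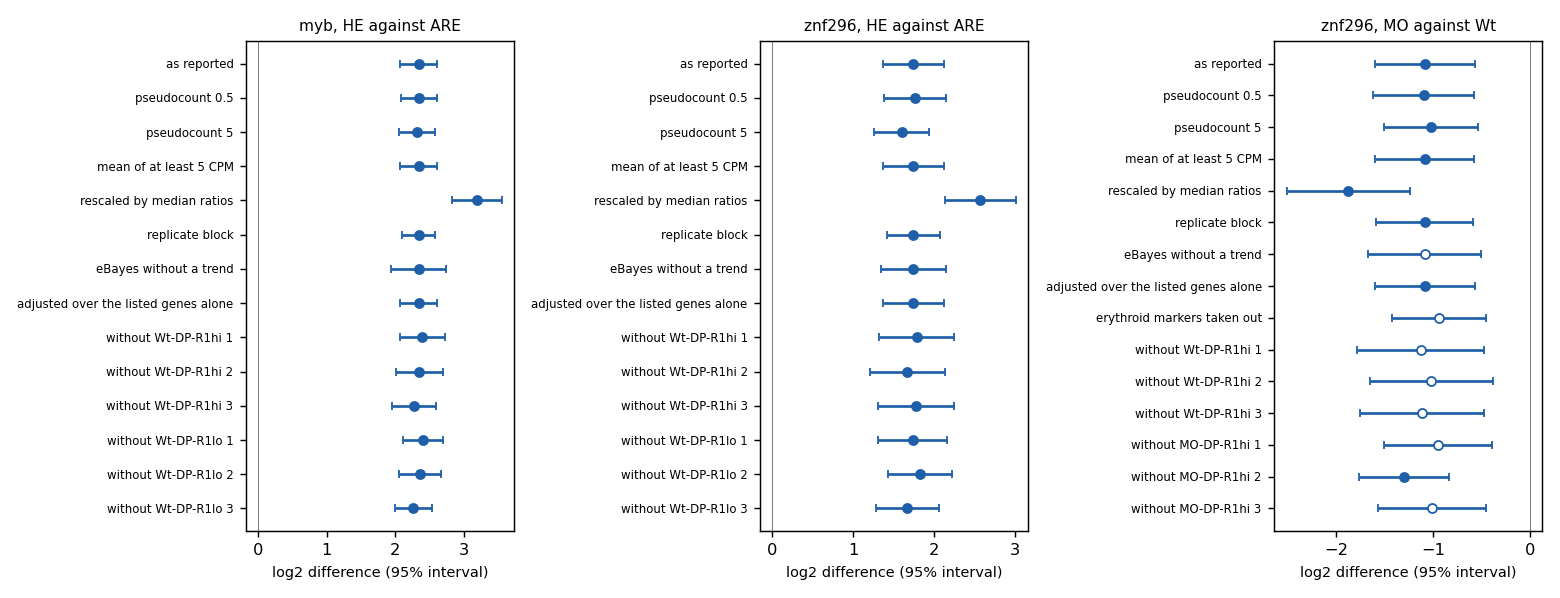
Log2 difference with its 95% interval for the 3 differences under each processing setting; filled points have a limma adjusted p under 0.05 and open points do not. All points for myb and znf296 in HE against ARE are filled, whereas 7 of 15 are open for znf296 in MO against Wt.

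Markers of other cells moved with the knockdown. Primitive erythroid markers, with 7 of 12 listed, all rose, where 26.3% of the listed genes did by limma, and their summed level went from 3.63 to 4.75% of each Wt library to between 10.4 and 16.6% of each MO library in DP-R1hi. The share was 14.7, 10.4 and 16.6% in MO libraries 1 to 3. After rescaling by median ratios, 4 of the 7 no longer passed. That rescaling is set by the listed genes, which were chosen as changed and of which 421 of 676 were higher in MO. It therefore lowered the differences of this comparison, with a shift between groups of 0.80 on the log2 scale. For this reason it cannot decide whether a call is kept, lost or gained, here or in the lists below. In DN, where znf296 was not listed, 7 of 12 were listed, as were 1.53% of the genes tested there. All 7 stood lower in MO than in Wt, and 4 of them passed, while 19.3% of all listed genes rose by limma. The median log2 difference of these 7 was −1.68, against 0.997 over all genes listed in DN. Sums were 1413 to 1832 CPM in Wt and 363 to 668 CPM in MO, and the difference between the gates was not tested. When CPM in DP-R1hi were recomputed without the 7 erythroid markers listed there, the znf296 difference was −0.94 with a limma adjusted p of 0.0619. These 7 were left out of each library's total, a choice made after seeing the data. The globin gene hbae1, which also rose (1909 CPM in Wt, 6667 CPM in MO), is not on the marker list under that name. The list holds hbae1.1 instead, and genes were matched by name only. The gene hbae1 is therefore counted neither in the shares above nor among the genes left out. Of the macrophage and neutrophil markers 7 of 11 were listed in DP-R1hi. Of these 5 rose, the neutrophil enzyme gene mpx fell, and coro1a did not pass, where 26.3% of all listed genes rose and 15.1% fell. Their sum, carried mostly by mpx and coro1a, was 6033 to 8024 CPM in Wt and 3346 to 4992 CPM in MO. The epidermal markers krt4 and epcam summed to 14.5 to 38.5 CPM in Wt and 43.4 to 2469 CPM in MO, and neither passed the test. Of the endothelial markers 2 of 10 were listed. The gene fli1a fell, as did 15.1% of all listed genes, and esama stood 1.28 higher without passing. Their sums, carried mostly by fli1a, were 544 to 588 CPM in Wt and 337 to 404 CPM in MO. No listed marker was at 0 in any of these libraries. The part of any of these cells, erythroid cells included, in the znf296 values was not tested.

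Marker levels also differed between the HE and ARE gates. The 7 listed endothelial markers, among them the gate gene kdrl, were all lower in HE, as were 56.5% of all listed genes by limma, with sums of 57.9 to 179 CPM against 979 to 1916 CPM. All listed macrophage markers (mpeg1.1, mfap4, csf1ra, irf8 and ccl34a.4, 5 of the 11 on the macrophage and neutrophil list; 57.4 to 88.3 against 885 to 1337 CPM), epidermal markers (6 of 10; 22.9 to 42.4 against 262 to 2012 CPM), neural markers (4 of 8; 21.6 to 50.0 against 124 to 227 CPM) and muscle markers (2 of 7; 1.42 to 1.76 against 4.58 to 25.2 CPM) were lower in HE too. No neutrophil marker was listed there, while mpx stood at 4305 ± 806 CPM (SD, n = 3) in the Wt-DP-R1hi libraries of the MO table. The erythroid markers gata1a and epor, 2 of 12, were higher in HE, as were 38% of all listed genes by limma. Their sum was 270 to 331 CPM against 134 to 206 CPM. The 7 erythroid markers listed in the MO comparison summed to 36250 to 47514 CPM in the Wt-DP-R1hi libraries. None of these listed markers was at 0 in any library. Their part in the myb and znf296 values was not tested.

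Both comparisons that list znf296 use the same 3 Wt-DP-R1hi libraries. In reads, znf296 counted 1275, 1584 and 1531 in these libraries in both tables, and so did all other genes in common (397 of 397 with equal reads in each library). The tables differ only in scaling, by a mean factor of 1.08. A low or high draw of znf296 in these libraries would therefore enter both differences at once. Relative to the Wt-DP-R1hi mean of its own table, znf296 was at 25.9 to 32.5% in the ARE libraries and at 38.1 to 62.5% in the MO libraries. Divided by the mean factor, the MO libraries would stand at 31.8, 52.2 and 34.8 CPM on the scale of the HE and ARE table, above the 3 ARE libraries (21.7 to 27.1 CPM) and below the 3 HE libraries (78.8 to 92.3 CPM). The tables were normalised separately, so this order is a description and was not tested.

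Genes in the haemogenic network were examined next, in 4 lists. Of 25 haemogenic and blood stem cell transcription factors 11 were listed for HE against ARE, 7 higher and 4 lower by limma (38% and 56.5% over all listed genes), with a median log2 difference of 1.01 against −1.0 over all listed genes. The zinc finger repressor genes gfi1aa (5.05) and gfi1ab (4.47) differed more than myb. The gene gata2b, a regulator upstream of runx1, differed by 1.61, at 5.49 CPM in HE and 1.11 CPM in ARE. At such low values the added 1 CPM shrinks a log2 difference, so gata2b is not ranked against znf296. The lower ones with the largest change were the ETS factor genes etv2 (−4.19) and erg (−3.42) and the endothelial factor gene gata2a (−1.69). After rescaling by median ratios, gata2a (−0.96, limma adjusted p = 0.0655) no longer passed, nor did spi1a, whose −0.96 became −0.11. In the MO comparison 5 of the 25 were listed, with a median of 0.93 against 1.02 over all listed genes. The gene gfi1ab fell, as znf296 did, and further, by 2.88 on the log2 scale (limma adjusted p = 7.00e-04), and so did the ETS factor gene fli1a (−0.73, adjusted p = 0.0391). The stem cell factor gene tal1 (0.93, adjusted p = 0.0340) and the myeloid factor gene spi1a (1.12, adjusted p = 0.0283) went the other way, and erg stood 1.41 higher without passing (adjusted p = 0.176). The calls of tal1 and spi1a ended after rescaling, at 0.13 and 0.32. As above, the rescaling rests on genes chosen as changed and lowers the MO differences, so it does not settle these calls. No member was listed in DN.

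Myb family members and protein partners of c-Myb came next, and 4 of 16 were listed for HE against ARE. Of these, 3 were higher and 1 lower by limma, beside 38% and 56.5% of all listed genes, with a median of 1.06 over the 4 against −1.0 over all listed genes. The gene mybbp1a, which codes for the nucleolar Myb-binding protein 1a, stood at 249 ± 34 CPM in HE and 57.8 ± 9.04 CPM in ARE (SD, n = 3), a log2 difference of 2.09 and thus close to that of myb. The gene men1, whose product menin joins c-Myb to histone methyltransferases in mammalian cells, was higher by 1.24, and mybl2a, a family member of dividing cells, by 0.87. The lower one was hipk2, whose product phosphorylates c-Myb and promotes its degradation in mammalian cells, at 2.22 ± 0.925 CPM in HE against 28.2 ± 7.51 CPM in ARE (log2 −3.19, limma adjusted p = 4.36e-05). In the MO tables only mybbp1a was listed. It differed by −0.70 in DP-R1hi (limma adjusted p = 0.0728, or −1.50 and 0.0025 after rescaling) and by 0.89 in DN (adjusted p = 0.115, or −0.01 after rescaling), passing in neither without rescaling, and the difference between the gates was not tested.

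Of 20 genes described as c-Myb targets in mammalian cells 9 were listed for HE against ARE, 6 higher and 3 lower by limma, with a median of 0.68, where 38% and 56.5% of all listed genes were called and the median was −1.0. Beside gfi1aa and gfi1ab, the largest changes were those of the chemokine receptor gene cxcr4a (−2.63), the adenosine deaminase gene ada (−1.84), and the paralogs myca (−1.32) and mycb (1.27), which moved in opposite directions. The gene myca stood at 13.5 CPM in HE and 33.4 CPM in ARE, and mycb at 80.0 and 33.3 CPM. After rescaling myca no longer passed (−0.51). In the MO comparison of DP-R1hi 5 were listed, with a median of −0.98 against 1.02 over all listed genes. The genes gfi1ab, mpx (−1.42, limma adjusted p = 0.0169) and the replication enzyme gene top2a (−0.98, adjusted p = 0.0425) fell, mycb rose (1.17, adjusted p = 0.0131), and cxcr4a stood 1.46 higher without passing (adjusted p = 0.171). After rescaling mycb stood at 0.37 and no longer passed. In DN, where 19.3% of the listed genes rose, myca was among them (1.28, limma adjusted p = 0.0327, or 0.38 and not passing after rescaling), while mycb at 1.01 (adjusted p = 0.120) and mpx at −0.90 (adjusted p = 0.970) did not pass.

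The last list held partners of the znf296 product. Of 25 genes of the NuRD complex and of BCL11-type or pluripotency zinc finger partners, 2 were listed for HE against ARE. Over all genes tested the listed share was 25%. The histone-binding subunit gene rbbp4 was higher in HE (0.61, limma adjusted p = 0.00169), and the methyl-binding domain gene mbd3b did not pass (−0.64, adjusted p = 0.0626, or 0.18 after rescaling). In the MO comparison of DP-R1hi, where 5.89% of the genes tested were listed, 1 of the 25 was, the stem cell zinc finger gene sall4. It stood at −1.04 and did not pass (limma adjusted p = 0.213, or −1.75 and 0.0145 after rescaling).

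**Figure D4:**
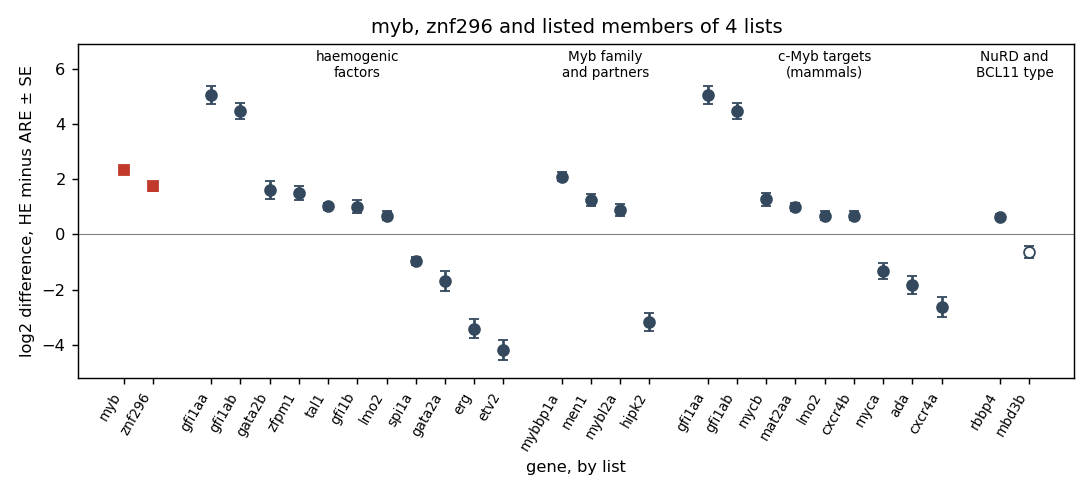
Log2 difference between HE and ARE (± SE) for myb and znf296 (red squares) and for every listed member of the 4 lists (circles, open where the limma adjusted p was not under 0.05). The genes gfi1aa, gfi1ab and lmo2 appear in 2 lists, and gfi1aa and gfi1ab lie above myb. Among the Myb partners mybbp1a at 2.09 lies closest to myb, and hipk2 at −3.19 is the lower partner.

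The genes next to myb and znf296 were also looked up, by their order on the RefSeq assembly GRCz12tu, for which no coordinates are given because the reads were aligned to another build. Of the 3 protein-coding genes on either side of myb, 3 of 6 were listed, hbs1l, mtfr2 and armc1l, all as higher in HE, where 10.1% of the genes tested were. The other 3, sgk1, aldh8a1 and nlrp12l, were not listed. In the human genome the interval between HBS1L and MYB is known to hold enhancers of MYB. The gene hbs1l, which codes for a ribosome rescue factor, stood at 102, 117 and 108 CPM in HE and 62.8, 73.9 and 69.2 CPM in ARE, a log2 difference of 0.66 ± 0.14 (SE; limma adjusted p = 0.00501). On the other side mtfr2, a mitochondrial fission regulator gene, differed by 0.69 ± 0.21 (adjusted p = 0.0344) and armc1l by 0.61 ± 0.16 (adjusted p = 0.0141). All 3 differences lay below the 95% interval of that of myb (2.07 to 2.61). After rescaling they were 1.51, 1.53 and 1.45, beside 3.19 for myb. The annotated spans of mtfr2 and armc1l overlap, so their reads may not be fully separate. Around znf296 the picture differed. Its neighbour capn12 was listed only for MO against Wt in DP-R1hi (1.3, adjusted p = 0.146) and fosb only for HE against ARE (−0.95, adjusted p = 0.0601). Neither passed, and neither went in the direction of znf296.

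**Figure D5:**
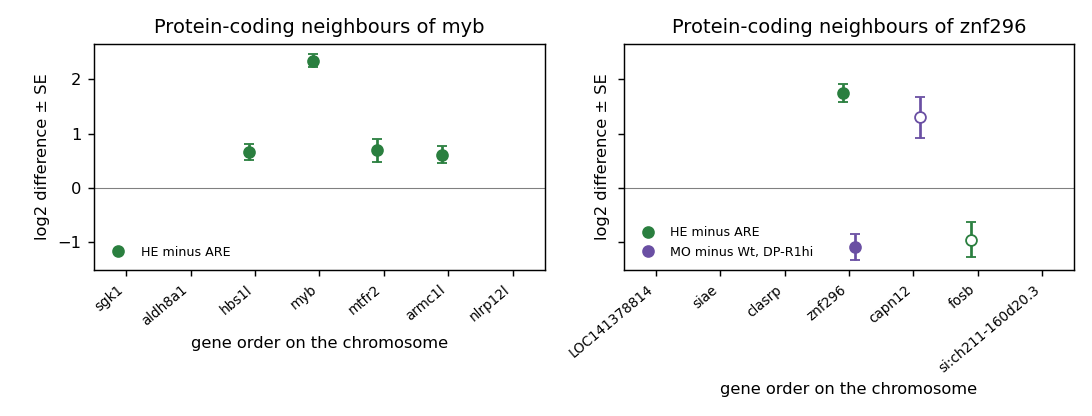
Log2 difference (± SE) of myb, znf296 and the 3 protein-coding genes on either side of each, in chromosomal order; a gene with no point was not listed, and open points did not pass. The 3 listed neighbours of myb lie at 0.61 to 0.69 against 2.34 for myb.

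Last, the listed genes with the most similar profile were sought, by the root mean square difference of log2 values after each profile was centred on its Wt-DP-R1hi mean. For myb, over the 6 HE and ARE libraries and 2731 other genes, they were zgc:136858 (0.14), the RNA polymerase I subunit gene polr1b (0.20), the proteasome activator gene psme2 (0.23), si:ch73-208g10.1 (0.27) and the RNA polymerase III subunit gene polr3gla (0.28), where the median over all genes was 2.39. For znf296, over 12 values in both tables and 396 other genes, they were si:ch73-208g10.1 (0.17), the sugar kinase gene tkfc (0.20), the phosphoinositide kinase gene pik3cd (0.20), the lysophosphatidic acid receptor gene lpar5a (0.20) and the Rab GTPase gene rab3da (0.24), against a median of 2.22. The gene si:ch73-208g10.1 was thus near both members, at 147 CPM in HE and 36.0 CPM in ARE, with log2 differences of 2.0 for HE against ARE and −1.23 for MO against Wt. These distances describe libraries in 2 or 3 groups, and the Wt-DP-R1hi libraries count in both tables. The medians include genes that moved the opposite way, such as the 1633 of 2732 that were lower in HE. They therefore do not show whether the named genes are unusually alike.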

How the data were processed

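Per the methods, RNA (2.2 ng, integrity number above 8) went into SMARTer low-input libraries, sequenced as 75 bp pairs, trimmed with Trimmomatic 0.32, aligned with STAR to zebrafish Zv10, counted with featureCounts and tested by the authors with edgeR's likelihood ratio test. The deposited CPM are the authors' counts scaled to effective library size, for called genes only. The deposited log2 columns (the authors' fold change and mean level) and the deposited score (the authors' likelihood ratio) were not used. The authors' p-value columns served only to count the genes tested (10916 for HE against ARE, 11479 for each MO table) and those left off. Strand was not stated, so overlapping genes cannot be told apart.

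Here log2(CPM + 1) was fitted over all listed genes of a table with limma 3.58.1 (lmFit, eBayes with trend, two-sided) in R 4.3.3, without a filter on low values, and Benjamini-Hochberg values were taken over all genes tested, with unlisted ones taken as not passing. Genes under the authors' threshold that were left off were also taken as not passing, which can raise the adjusted p-values. The fit was also tried on simulated data with the same spread for every gene and adjustment over the listed genes alone. The main fits differ in both, so that trial does not check the calls given here. No count test was run, since reads were only inferred from the steps of the CPM values. Permutation tests were exact (scipy 1.17.1). Marker shares are sums of CPM turned into percent.

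Per the paper the replicates are separate experiments on pooled embryos; how their numbers match across groups is not given in the labels. In the DP-R1hi MO table the deviations of same-numbered libraries correlated with r = 0.13, 0.31 and 0.12. Differently numbered libraries gave r from −0.30 to 0.12, and MO 1 with Wt 3 (0.12) was as high as pair 3. The correlations alone therefore do not settle the numbering. Since each clutch had been split between conditions, the numbers were taken as pairs for the numbered differences and the replicate block. The main fit, the fits that left out 1 library and the exact test of each gene did not use the pairs.

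The members and lists were chosen with earlier results of these data known. Named genes were the members, every listed gene of a list or, above 6, the 6 with the largest difference, and the 5 most similar profiles; chromosomal neighbours were added later. Alternatives were other pseudocounts (0.5, 5), a minimum mean of 5 CPM, rescaling by median ratios, a replicate block, no trend, adjustment over listed genes alone and leaving out each library. No sequence is shown.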

Additional observations from a re-analysis of the deposited data

How the results depend on the processing

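The differences of myb and znf296 between HE and ARE kept their direction and their limma call under all 13 alternatives each, with adjusted p-values up to 2.01e-04 and 7.15e-04. Leaving out 1 library gave 2.26 to 2.40 for myb, 1.67 to 1.83 for znf296 and 0.50 to 0.68 for the gap between them. Rescaling by median ratios over the listed genes, which shifted the gates by a log2 of −0.86, gave 3.19 and 2.58 and left 1918 genes called, 1099 higher and 819 lower, where 1037 and 1544 had been. That rescaling rests on genes chosen as changed. In the MO comparison the shift was 0.80, the znf296 difference −1.87, and 293 genes passed, 56 higher and 237 lower in place of 178 and 102.

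The znf296 difference in MO lost its call without a trend (−1.09, limma adjusted p = 0.10) and without the listed erythroid markers (−0.94). It also lost its call in 5 of 6 fits that left out 1 library (−1.30 to −0.95). The direction was always the same, and the cause was not tested. The count of 280 genes called in MO became 158 without a trend, 661 adjusted over the listed genes alone, where fewer tests are counted, and 94 to 230 when 1 library was left out. With the numbered pairs as a replicate block the adjusted p of znf296 was 0.0182 in MO, 8.71e-06 in HE against ARE, and 1.30e-07 for myb; counts were 376 and 2686, and the gap stayed at 0.60 (exact p = 0.25, the smallest for 3 pairs). The block changed no call of either gene. For HE against ARE (r = 0.09, 0.18 and 0.27) every library correlated best with its own number. Per the paper the gates were sorted from pooled embryos in 3 experiments, so HE and ARE libraries of an experiment may share embryos. How the replicate numbers match across gates is not given in the labels. The fewest reads behind a znf296 value were 328.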
